A study of Mus musculus with 4 samples.

Results

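The natural killer receptor gene complex was followed as the stretch of mouse chromosome 6 from 128300000 to 130350000 of build mm9, which is 2050 kb long. Its sites were the deposited DNase I peaks whose midpoint lies in that stretch, chosen by position alone. There were 70 and 38 such peaks in DKO replicates 1 and 2, and 41 and 23 in WT replicates 1 and 2. Merged wherever they overlapped by at least 1 bp, they formed 74 regions, of 38986 such regions in the whole genome. DNase I cuts DNA that is not tightly packed, so a peak marks a site that was open enough to be cut and sequenced.

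The cells were naive CD8+ T cells sorted from spleen by their GFP, TCRbeta and CD8, with CD62L high and CD44 low to medium, and cultured with IL-7 and IL-15 over 72 h before DNase I was added. Mice of both genotypes carried hCD2-Cre, a recombinase under the human CD2 promoter, which is active in lymphocytes, and a Rosa26-lsl-GFP reporter that turns on where Cre has acted. In the DKO mice (Tcf1-/-Lef1-/-) both Tcf1 and Lef1 were floxed and so removed by Cre, while the WT mice had both genes intact. Each genotype had 2 libraries. The labels do not say whether replicates are separate animals, so their spread may be technical, and ages are not given. The identity of the cells was not checked against marker genes here, because no mm9 gene annotation was used.

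The complex encodes C-type lectin-like proteins of natural killer cells, several of which also appear on CD8+ T cells after activation or in cytokine. Klrb1c encodes NK1.1, and the Clec2 genes beside it encode ligands for receptors of the Klrb1 group. Cd69 encodes an early activation protein that keeps lymphocytes in tissue. Klrd1 encodes CD94, the partner of the Klrc (NKG2) chains in receptors for the MHC class I molecule Qa-1, with Klrc1 giving an inhibitory receptor. Klrk1 encodes NKG2D, an activating receptor for ligands made by stressed cells. The Klra (Ly49) genes encode a large family of MHC class I receptors. Tcf1 and Lef1 belong to 1 family of transcription factors that bind DNA through an HMG box and act in T cells from their development on.

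All 6 named genes were found in the RefSeq gene order of mouse build GRCm38.p6, which was used for names and neighbours only. From Klrb1a to Klra1 that order holds 76 genes, of which 44 carry a Klr or Clec symbol or are Cd69 or Olr1. It runs from the Klrb1 and Clec2 genes through Cd69, then the myeloid lectins Clec12a, Clec12b, Clec1b, Clec9a, Clec1a and Clec7a with Olr1. Then come Klre1, Klrd1, Klrk1, Klrc3, Klrc2 and Klrc1, followed by Klri1, Klri2 and Klrh1. The order ends with 13 Klra genes, 3 of them pseudogenes. On mm9 the rule for the complex places Cd69 near 129200000, the Klrd1, Klrk1 and Klrc group at 129500000 to 129650000, and the Klra genes above 129800000. Peaks are given below by mm9 position and by these segments, not by the nearest gene.

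Promoter sequences of genes of the complex were searched for short motifs, including the TCF/LEF motif of the removed factors. RefSeq (GRCm38.p6) gave 41 promoter entries for 34 of the lectin-like genes, each running from 250 bases before the gene start to 50 after it. Cd69 and Klrd1 had no entry. Short motifs were searched on both strands, CTTTGAT for TCF/LEF, TGTGGTT for RUNX, TGAGTCA for AP-1 and CCGGAAG for ETS. The TCF/LEF letters stood in 2 of the 41 entries, against 3.73% of all 32851 promoters, and both lay in the Klra family, in Klra6 and Klra7. RUNX letters stood in 3 entries (5.27% of all promoters), those of Klre1, Klrk1 and Klra1, and ETS letters in 0 (8.86%). AP-1 letters stood in 7 entries (5.20%) of 6 genes, since Klrc2 has overlapping entries. Klrk1 was among these genes, with its AP-1 letters outside the bases printed below. The entries of the named genes Klrb1c and Klrc1 held none of these motifs. The 250 bases before the start are printed, 5′ to 3′ on the gene's strand, for both TCF/LEF entries and for the named genes Klrk1 and Klra1, with a motif in capitals. These positions belong to GRCm38.p6 and cannot be set against the mm9 positions of the peaks.
Klra6 (chr6:130026955-130027204, minus strand): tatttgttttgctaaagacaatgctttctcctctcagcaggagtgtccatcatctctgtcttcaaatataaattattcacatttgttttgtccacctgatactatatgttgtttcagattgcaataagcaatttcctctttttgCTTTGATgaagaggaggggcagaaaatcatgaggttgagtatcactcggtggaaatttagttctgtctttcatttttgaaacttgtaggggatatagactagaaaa
Klra7 (chr6:130233323-130233572, minus strand): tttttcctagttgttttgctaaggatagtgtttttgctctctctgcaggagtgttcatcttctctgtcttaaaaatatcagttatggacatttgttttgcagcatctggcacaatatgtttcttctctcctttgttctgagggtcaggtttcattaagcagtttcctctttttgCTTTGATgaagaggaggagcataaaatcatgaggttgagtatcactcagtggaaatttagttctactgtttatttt
Klrk1 (chr6:129623865-129624114, minus strand): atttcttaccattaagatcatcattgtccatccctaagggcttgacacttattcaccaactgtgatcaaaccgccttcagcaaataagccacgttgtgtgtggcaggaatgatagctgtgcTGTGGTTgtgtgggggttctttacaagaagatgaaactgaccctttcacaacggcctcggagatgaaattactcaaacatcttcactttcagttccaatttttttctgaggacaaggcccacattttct
Klra1 (chr6:130386875-130387124, minus strand): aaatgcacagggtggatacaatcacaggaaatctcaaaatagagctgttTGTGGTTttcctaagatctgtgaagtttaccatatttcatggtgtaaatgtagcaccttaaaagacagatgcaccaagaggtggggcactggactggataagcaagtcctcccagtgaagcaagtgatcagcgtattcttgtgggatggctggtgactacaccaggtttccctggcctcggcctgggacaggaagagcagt
The TCF/LEF letters start 106 bases before the start of Klra6 and 76 bases before that of Klra7. A further entry of Klra7 did not hold them. The bases next to the letters are the same in both printed sequences, so these are not clearly separate matches. The RUNX letters start 129 bases before Klrk1 and 201 bases before Klra1. A match is a string of letters and does not show that a protein bound there.

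The 4 lists differed in length, with 34788 and 21353 peaks for DKO replicates 1 and 2, and 17521 and 11073 for WT replicates 1 and 2. Read totals are not given, and the lowest local background, which grows with depth, was 1.23 and 1.15 fragments in the DKO libraries and 1.5 and 1.47 in the WT libraries. Peaks on chromosome Y numbered 55 and 57 in the DKO lists and 0 in each WT list, so genotype and this difference cannot be told apart in any comparison below. MACS2's fold enrichment, the pileup of fragments at the summit over the local background, is the authors' value and is read here only within a list. A two-sided exact permutation test of 2 libraries against 2 cannot give a p below 0.33 and so cannot pass 0.05.

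More sites of the complex were listed for DKO than for WT cells on average, but the libraries of the genotypes overlapped. The DKO lists held 54 ± 22.6 peaks in the complex and the WT lists 32 ± 12.7 (SD, n = 2 each). WT replicate 1, with 41 peaks, stood above DKO replicate 2, with 38. The log2 difference was 0.75, with an exact two-sided permutation p of 0.67. Without DKO replicate 1 it was 0.31, without WT replicate 2 it was 0.33, and with lists of equal length it turned to -0.032. Peaks in the complex covered 12716 and 6931 bp in the DKO libraries, and 7291 and 4146 bp in the WT libraries (log2 difference 0.77, exact two-sided permutation p = 0.67).

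Against the length of the whole list the order turned. The complex held 0.201% and 0.178% of all peaks of DKO replicates 1 and 2, and 0.234% and 0.208% of those of WT replicates 1 and 2. Both DKO shares lay below both WT shares, with a log2 difference of -0.22 (exact two-sided permutation p = 0.33, the smallest possible). The exact 95% binomial (Clopper-Pearson) intervals were wide and overlapped, from 0.157 to 0.254% and 0.126 to 0.244% for DKO, and from 0.168 to 0.317% and 0.132 to 0.312% for WT. They cover counting error only. When each list was held to its 11073 peaks of highest −log10 p, the complex kept 26 and 22 peaks in DKO and 26 and 23 in WT. The difference in peak number was then not detectable, at -0.032 on the log2 scale (exact two-sided permutation p = 1).

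**Figure D1:**
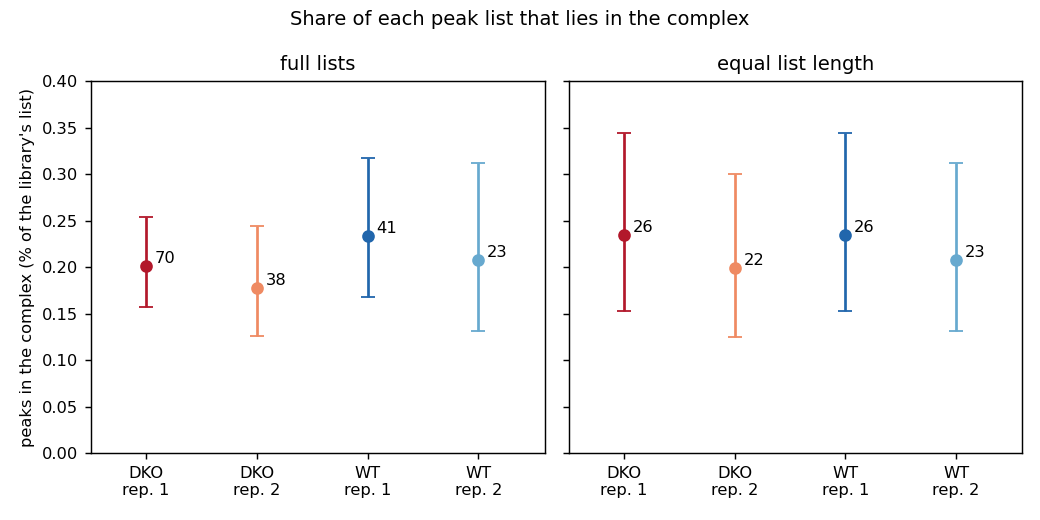
Peaks in the complex as a percentage of each library's list, for the full lists and for lists held to 11073 peaks. Points are libraries, bars are exact 95% binomial intervals, and the numbers are peak counts; at equal length the counts are 26 and 22 for DKO and 26 and 23 for WT.

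Few regions had a WT call without a DKO call, in the complex as in the whole genome. Of the 74 regions, 41 (55.4%) were called in at least 1 list of each genotype, against 43.3% of all regions of the genome. All 4 libraries called 19 (25.7%), against a background of 20.7%. Both DKO lists and neither WT list called 4 (5.41%), named DKO-only here, against 14.3% of all regions. Both WT lists and neither DKO list (WT-only) called 0, against 0.631%, a share so small that a count of 0 among 74 regions does not set the complex apart. The 3 regions that a WT list had and no DKO list had (4.05%, background 6.4%) all came from WT replicate 1 alone. At least 1 DKO list and no WT list called 30 (40.5%, background 50.3%). Regions called in 1 library only numbered 29 (39.2%, background 41.7%), of which DKO replicate 1 had 25 (33.8%, background 31.6%), DKO replicate 2 had 1 (1.35%, background 4.3%), WT replicate 1 had 3 (4.05%, background 4.28%) and WT replicate 2 had 0 (background 1.49%). The remaining 22 regions (29.7%, background 22.6%) were called in 2 or 3 libraries.

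**Figure D2:**
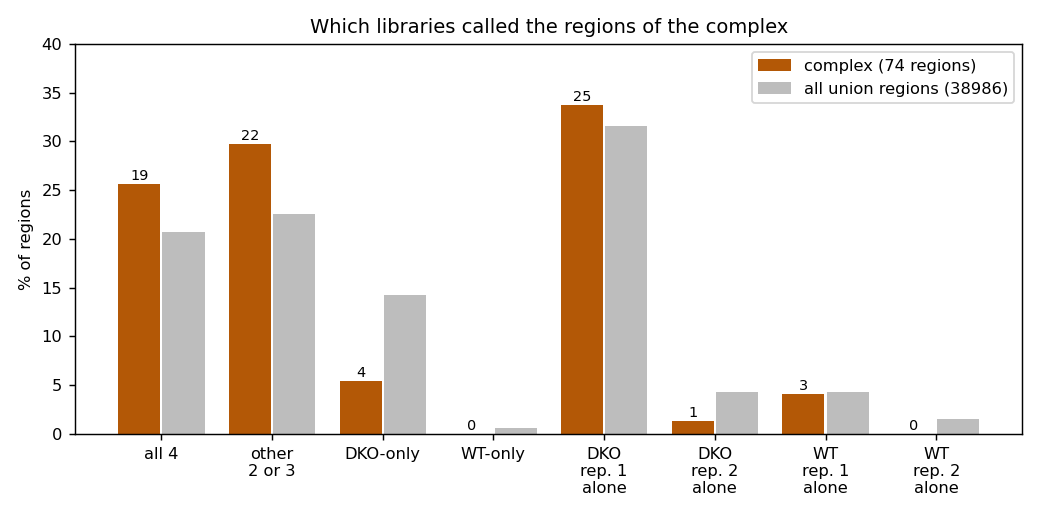
Share of regions by the libraries that called them, for the 74 regions of the complex and for all 38986 regions; numbers over the bars count regions of the complex. DKO-only regions were 5.41% in the complex and 14.3% of all regions, and regions called in all 4 libraries 25.7% and 20.7%.

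The overlap of the lists was also counted peak by peak within the complex. Of the 38 DKO replicate 2 peaks, 37 overlapped a DKO replicate 1 peak (97.4%, and 90.8% over that whole list), while 37 of 70 DKO replicate 1 peaks overlapped one of DKO replicate 2 (52.9%, whole list 55.3%). Of the 23 WT replicate 2 peaks, 20 overlapped a WT replicate 1 peak (87.0%, whole list 80.9%). Of the 41 peaks of WT replicate 1, 20 overlapped one of WT replicate 2 (48.8%, whole list 51.2%). All 23 WT replicate 2 peaks overlapped a DKO replicate 1 peak (whole list 91.5%), and 21 overlapped one of DKO replicate 2 (91.3%, whole list 82.2%). Of the 41 WT replicate 1 peaks, 38 overlapped DKO replicate 1 (92.7%, whole list 87.7%) and 31 overlapped DKO replicate 2 (75.6%, whole list 73.6%). In the reverse direction, 38 of 70 DKO replicate 1 peaks overlapped WT replicate 1 (54.3%, whole list 44.1%), and so did 31 of 38 DKO replicate 2 peaks (81.6%, whole list 60.7%).

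**Figure D3:**
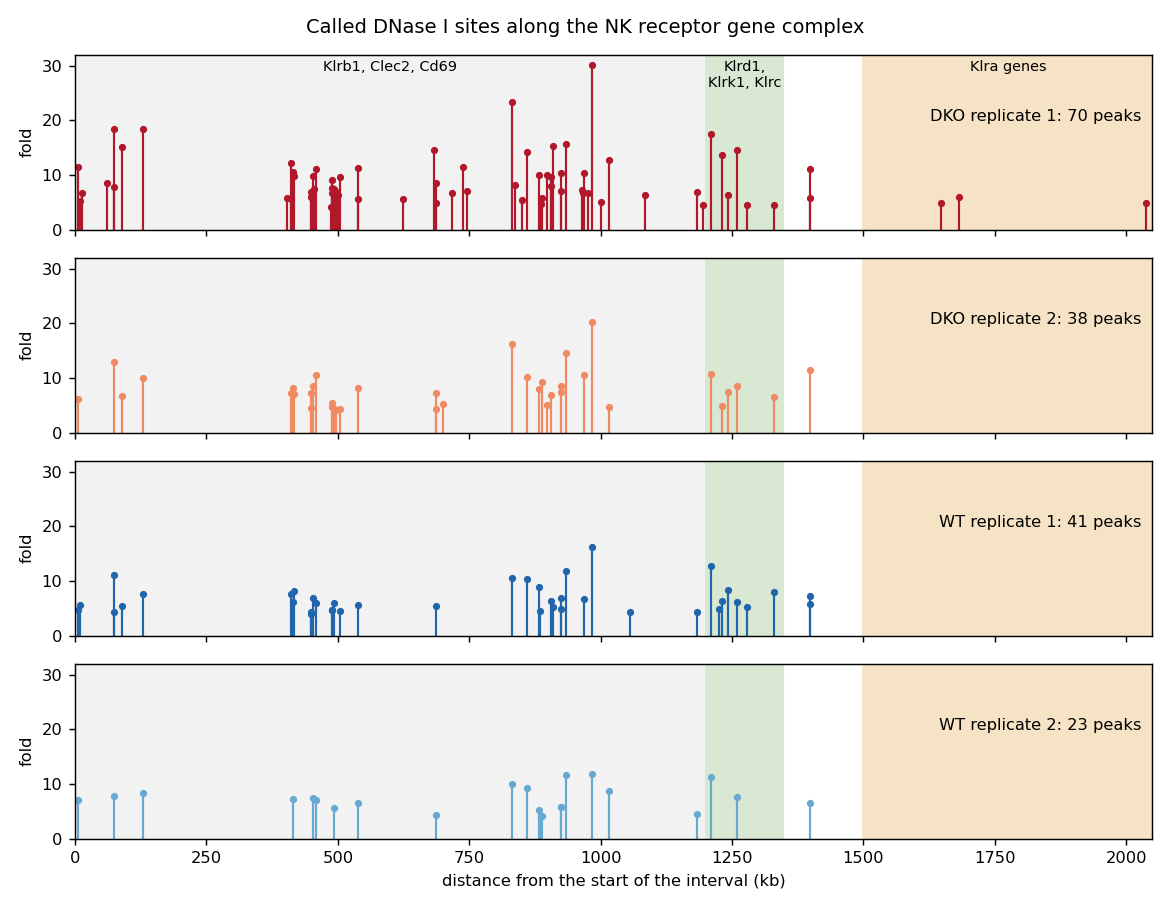
Each called site of the complex in the 4 libraries, by its distance from the start of the interval in kb and the fold enrichment of its list. Shading marks the Klrb1, Clec2 and Cd69 segment, the Klrd1, Klrk1 and Klrc segment and the Klra segment; the last holds 3 sites, all in DKO replicate 1.

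Sites were crowded into the Klrb1 to Klrc side of the complex and sparse over the Klra genes. The interval held 3.61 regions per 100 kb, against 1.42 along chromosome 6 and 1.59 along the autosomes. From its start to 129500000, the segment named here for Klrb1, Clec2 and Cd69, it held 62 regions, or 5.17 per 100 kb. The gene order puts the myeloid lectins between Cd69 and Klrd1, so that name does not cover every gene of the segment. Where Klrb1a starts on mm9 is not given, so regions near the start of the segment may lie before the lectin genes. The Klrd1, Klrk1 and Klrc segment held 7 in 150 kb, and the next 150 kb held 2. The Klra segment, 550 kb long, held 3 regions, or 0.55 per 100 kb. Of 21 windows of 100 kb, 7 had no region in any library. The longest stretches with no call lay at 129981890 to 130336873 (355 kb), 128430062 to 128703960 (274 kb) and 129697940 to 129947677 (250 kb).

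No library but DKO replicate 1 had a call beyond 129697939, the last 652 kb of the interval. The 3 calls of DKO replicate 1 over the Klra genes were weak. They lay at 129947678 to 129947790, 129981752 to 129981889 and 130336874 to 130337038, with folds of 4.93, 5.88 and 4.93 and pileups of 10, 13 and 10 fragments, where the median pileup of that list was 23. These 3 were named after their values were seen. Of the 10 Klra genes with a RefSeq promoter, 4 shared a run of 50 bases with the promoter of another gene. In the Klrc group, 152 of the 251 runs of 50 bases in the Klrc3 promoter stood in another gene's promoter too. Shared runs were not limited to these families. They numbered 72 in Clec2h, 72 in Clec2e and 7 in Clec2g, of the most densely called segment, and at most 26 in a Klra promoter. How reads that match several copies were treated is not given in the sources used here. Calls over these families are therefore uncertain, and the part of shared sequence in the low Klra count was not tested.

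The site of the complex with the highest fold in every library lay at 129283915 to 129284161, past the position the rule gives for Cd69. Its folds were 30.2 and 20.3 in DKO replicates 1 and 2, and 16.1 and 11.8 in WT replicates 1 and 2, from pileups of 97, 49, 49 and 31 fragments in that order. A 494 bp region at 129130429 to 129130922, before the Cd69 position, had folds of 23.3 and 16.2 in DKO and 10.5 and 9.94 in WT, the second highest in each DKO library but not in the WT libraries. Its pileups of 107 and 51 in DKO and 40 and 36 in WT were above those of the first site in every library but WT replicate 1. A 584 bp region at 129234414 to 129234997 had 15.6 and 14.6 in DKO and 11.8 and 11.7 in WT. By −log10 p, these 3 regions were among the 4 strongest of the complex in each library. The highest −log10 p of WT replicate 2 was that of 129234414 to 129234997, at 32.4 against 28.7 for the site with the highest fold.

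Within 100 kb windows, the one that starts at 129200001, where the rule puts Cd69, held 11 regions. DKO replicates 1 and 2 called 11 and 6 of them, and WT replicates 1 and 2 called 7 and 4. No region there was DKO-only, against 14.3% of all regions, and 11 regions are too few for this to set the window apart. Apart from the 2 strong regions already given, all 4 libraries called a pair of sites about 1 kb apart. The first, at 129223703 to 129224076, had folds of 10.3 and 7.43 in DKO and 6.92 and 5.76 in WT. The second, at 129225270 to 129225570, had 7.02 and 8.48 in DKO and 4.94 and 5.79 in WT; it was named after its values were seen. In the window before, the region at 129160415 to 129160743 had 14.1 and 10.2 in DKO and 10.4 and 9.33 in WT, and that at 129182961 to 129183192 had 10.1 and 7.91 in DKO and 8.96 and 5.31 in WT. That window also held the DKO-only region at 129198351 to 129198517, just before the Cd69 position, which is described below.

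In the Klrd1, Klrk1 and Klrc segment WT replicate 1 had more calls than any other library. Of its 7 regions, DKO replicates 1 and 2 called 6 and 5, and WT replicates 1 and 2 called 7 and 2. Both regions called in all 4 libraries stood among the named ones. At 129509353 to 129509657 the folds were 17.5 and 10.8 in DKO and 12.8 and 11.3 in WT. At 129558375 to 129558818 they were 14.6 and 8.61 in DKO and 6.11 and 7.59 in WT. A further 3 regions were called in both DKO lists and in WT replicate 1, a pattern found in 12 regions of the complex (16.2%, background 11.6%) and its counterpart with WT replicate 2 in 2 (2.70%, background 2.3%). None of the 7 was DKO-only, against 14.3% of all regions, and 7 regions are too few for this to set the segment apart. The remaining ones were a region shared by DKO replicate 1 and WT replicate 1 and a region of WT replicate 1 alone. Between the Klrc and Klra genes, a region at 129697377 to 129697599 was called in all 4 libraries, with folds of 11.0 and 11.5 in DKO and 7.30 and 6.59 in WT. In the gene order Klri1, Klri2 and Klrh1 stand between these groups.

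Toward the Klrb1 and Clec2 side, the window from 128700001 to 128800000 was the densest of the complex, with 16 regions. Among the 10701 windows of the genome that held any region, 28 held at least as many. All 16 were called in DKO replicate 1, 11 in DKO replicate 2, 10 in WT replicate 1 and 4 in WT replicate 2. Among the named regions it held 128714191 to 128714491, with folds of 10.5 and 8.24 in DKO and 6.17 and 7.30 in WT. Its region at 128753089 to 128753422 had 9.86 and 8.60 in DKO and 6.81 and 7.43 in WT. At 128758667 to 128758819 the folds were 11.1 and 10.5 in DKO and 6.05 and 7.07 in WT. The order of these counts was that of the list lengths.

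At the start of the interval, 128374556 to 128374821 had folds of 18.4 and 13.0 in DKO and 11.2 and 7.76 in WT. The region at 128429889 to 128430061 had 18.3 and 10.02 in DKO and 7.61 and 8.38 in WT. Both lie before the 274 kb stretch without a call. The gene order was read from Klrb1a on, and the rule does not say where Klrb1a starts on mm9. Both regions may therefore lie before the lectin genes. Further in, 128838908 to 128839310 had 11.2 and 8.25 in DKO and 5.61 and 6.57 in WT, and its summits in the 4 libraries lay within 2 bp of each other. The other 3 regions called in all 4 libraries had folds from 4.34 to 11.5.

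**Figure D4:**
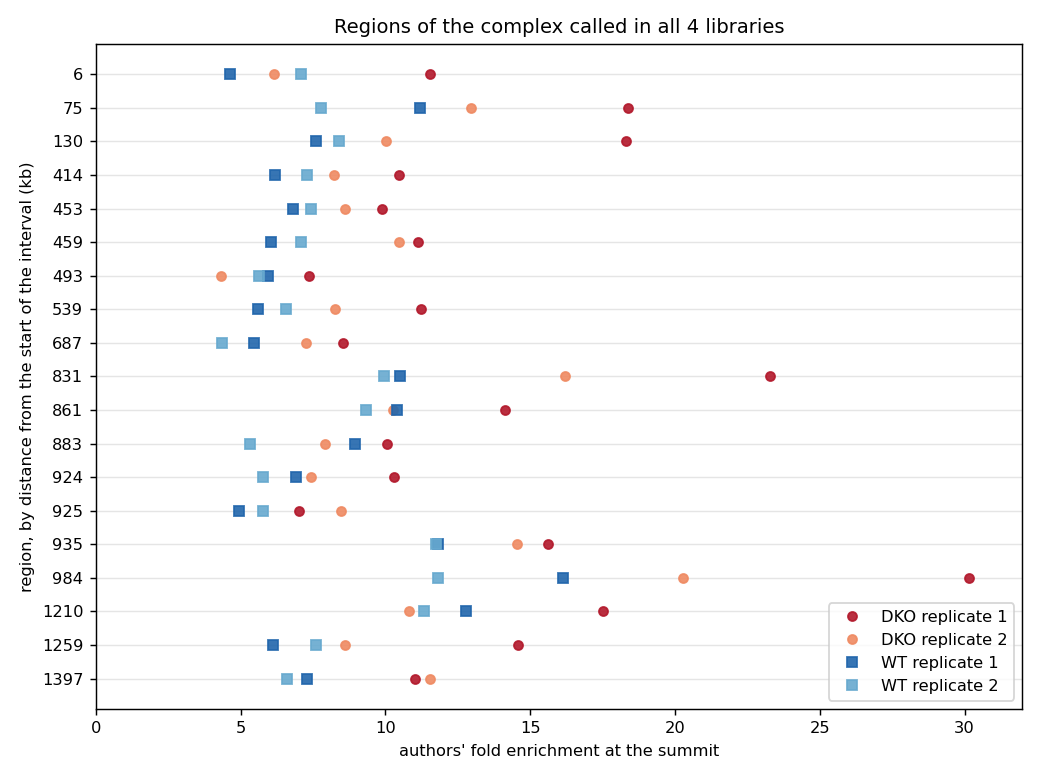
Fold enrichment of the 19 regions called in all 4 libraries, in order along the interval, with circles for DKO and squares for WT libraries. Each fold is relative to its own library; the region 984 kb from the start is the highest in every library.

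The shared sites had a similar order of fold in the libraries, and their summits lay close together. Closeness of summits is in part built in, since these regions were chosen by overlapping peaks and had a median width of 301 bp. Summits of the 19 regions spread over 2 to 71 bp between the 4 libraries, with a median of 24 bp, against 44 bp over all regions of the genome called in all 4. In 11 of the 19 the spread was at most 25 bp. Across the 19 regions, the order of fold had a Spearman correlation of 0.75 between the DKO libraries, 0.73 between the WT libraries and 0.69 to 0.85 between libraries of different genotype. These are descriptions across sites that share libraries and carry no test. The median fold of the 19 was 11.2 and 8.61 in DKO replicates 1 and 2, and 6.92 and 7.30 in WT replicates 1 and 2. The same medians over all regions called in all 4 libraries were 13.2 and 9.59 in DKO, and 7.51 and 6.61 in WT.

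The 4 DKO-only regions all lay in the Klrb1, Clec2 and Cd69 segment, which held 62 of the 74 regions. Their folds were low in DKO replicate 2. At 129198351 to 129198517 the folds were 9.92 and 5.12 in DKO replicates 1 and 2, from pileups of 23 and 10. At 128788412 to 128788523 the folds were 9.17 and 4.65, from pileups of 55 and 19. The other 2 lay at 128986629 to 128986802, with folds of 4.91 and 4.40, and at 128795443 to 128795571, with 6.94 and 4.18. In DKO replicate 2 all 4 folds were at or below 5.12, where the lowest fold of the complex was 4.18 and its median 7.38. The region at 128986629 ended 256 bp before one called in all 4 libraries. With peaks within 500 bp merged, 2 DKO-only regions were left. With lists of equal length the complex had 38 regions, and 0 of them were DKO-only, against 5.75% of all 18389 regions at that length. WT-only regions also numbered 0 of these 38, against 4.61%. Among so few regions, counts of 0 beside such shares do not set the complex apart.

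The 25 regions called in DKO replicate 1 alone had a median fold of 6.33, against 6.16 for all regions of the genome with that pattern. In 5 of them the fold was at least 8, and the highest, 14.7 at 128983558 to 128983721, came from a pileup of 47 fragments. The 3 regions of WT replicate 1 alone were 129184621 to 129184737, 129356266 to 129356388 and 129525399 to 129525578, with folds of 4.61, 4.40 and 4.80. The single region of DKO replicate 2 alone, at 128999797 to 128999902, had a fold of 5.18. These last 5 regions were named after their values were seen. Apart from that one of DKO replicate 1, they lay near the lowest folds that were listed.

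Local background, the level the caller expected at a site without enrichment, was raised at 3 short stretches in every library. They were taken as runs of at least 3 regions with a background at least 1.5 times the median of the list in each library that called them, a rule set after the values were seen. The first, 128748923 to 128755423, held 4 regions with a median background of 4.53 and 3.06 fragments in DKO replicates 1 and 2, and 3.47 and 3.31 in WT replicates 1 and 2. The second, 128786324 to 128800208, held 7 regions with medians of 5.11 and 3.43 in DKO and 4.49 and 3.80 in WT. The third, 129182961 to 129188130, held 4 regions with medians of 5.93 and 3.03 in DKO and 3.84 and 3.61 in WT. WT replicate 2 called 1, 1 and 3 regions of these stretches, so its medians rest on few sites. The same holds for DKO replicate 2 and WT replicate 1 in the third stretch, where each called 2. At the other regions of the complex the medians were 2.0 and 1.59 in DKO and 2.09 and 1.88 in WT, beside list medians of 1.79 and 1.63 in DKO and 2.1 and 2.0 in WT.

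Because fold is taken over background, a given pileup gives a lower fold at these stretches by construction. At 128788412 to 128788523, a DKO-only region of the second stretch, DKO replicate 1 had a pileup of 55 and a fold of 9.17, while at 129509353 to 129509657 a pileup of 45 in the same library gave a fold of 17.5. The second stretch held 2 of the 4 DKO-only regions. WT replicates 1 and 2 called 3 and 1 of its 7 regions, where their backgrounds were 4.38 to 4.63 and 3.80 fragments. The part of the raised background in which sites were listed was not tested.

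**Figure D5:**
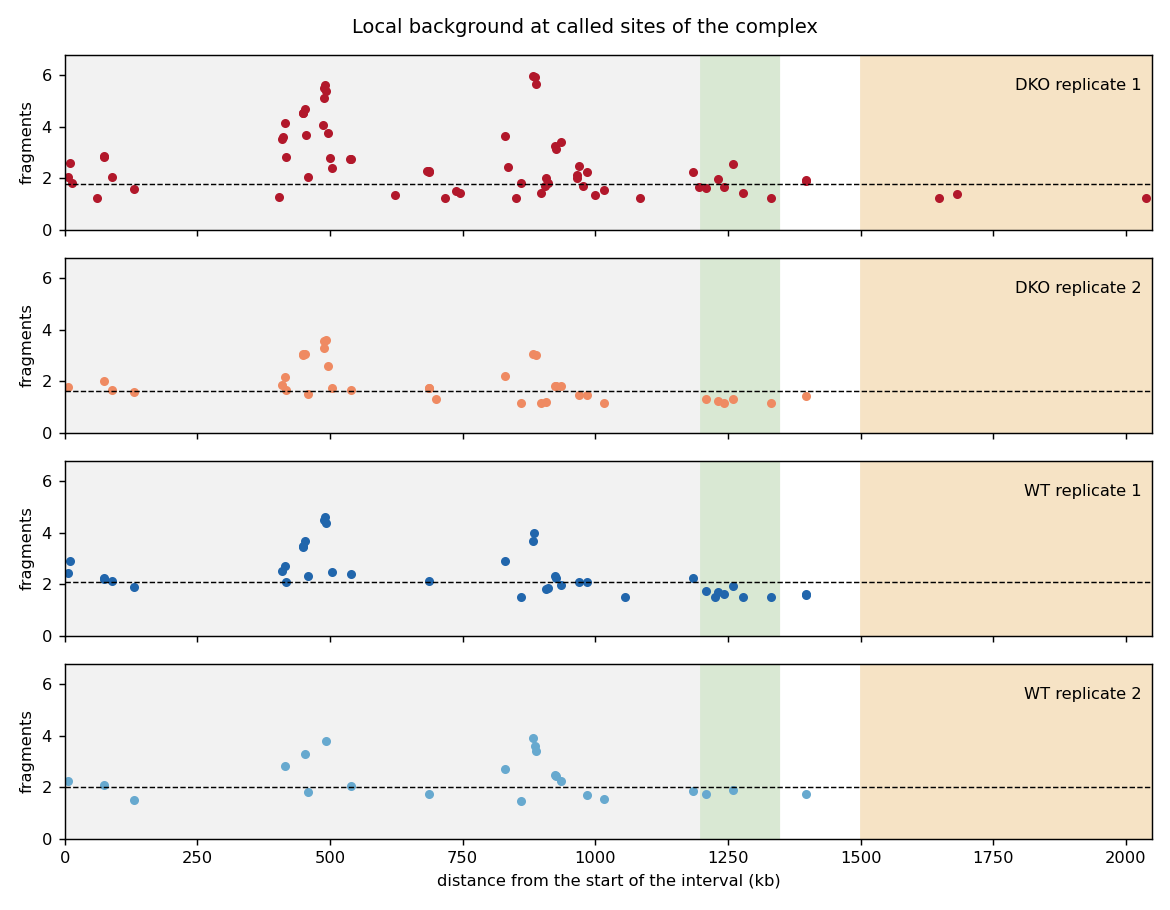
Local background in fragments at each called site of the complex, by distance from the start of the interval in kb, with the median of each library's list as a dashed line. The raised stretches stand around 453, 493 and 883 kb from the start in all 4 libraries, with medians from 3.03 to 5.93 fragments.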

How the data were processed

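The authors deposited 1 peak list per library, so peaks were not called on pooled libraries. The submitters' processing notes name Bowtie2 2.2.5, FastQC, MACS2 2.1.1 and the build mm9; settings, any control library and duplicate removal were not given in the sources used here. For each peak the authors deposited a fold enrichment (a ratio), the −log10 p, the −log10 q and a score, which equals the −log10 q times 10 with its decimals dropped for nearly every peak. Positions were converted to count from 1. The pileup and background were solved from fold and p (MACS2 fold is pileup plus 1 over background plus 1; p is the Poisson chance of a higher pileup). This applied to peaks with −log10 p under 250; 100% of pileups were whole within 0.02, and 100% of the pileups of 4809 simulated peaks were recovered.

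Peaks were merged into regions at 1 bp overlap; a site without a peak missed the listing thresholds and is not shown to be closed. Groups were compared with a two-sided exact permutation test. Alternatives were −log10 q minimums, equal list lengths, other merging and limits, and each library left out. Named regions were, by rule, the 15 of those called in all 4 libraries with the highest lowest rank, the DKO-only and WT-only regions and the region with the highest fold per library. The members and lists were chosen with earlier results of these data known. No genome of mm9 was used, so peaks have no gene or sequence. Python 3.11.15, pandas 2.3.3, numpy 2.4.6, scipy 1.17.1 and matplotlib 3.10.9 were used.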

Additional observations from a re-analysis of the deposited data

How the results depend on the processing

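The share of the list in the complex and the covered bases kept their direction in all 10 settings tried for each, from -0.31 to -0.032 and from 0.23 to 1.23 on the log2 scale. Counting any overlap with the interval and the replicate block gave the main values again, so these settings could not show a change. The log2 difference in peak number kept its direction in 9 of 10 and turned to -0.032 at equal list length. At that length the share has the same value, so its direction there rests on a difference that was not detectable. At equal list length there were 0 DKO-only regions among the 38 of the complex. There were 2 when peaks within 500 bp were merged, and 8 when a peak had to cover at least 0.5 of its region. Regions called in all 4 libraries fell to 8 both at −log10 q of at least 10 and with that coverage rule. Leaving out 1 library gave log2 differences of 0.31 to 1.19 in peak number, -0.31 to -0.13 in share and 0.33 to 1.21 in covered bases. It also gave 5 to 29 DKO-only regions (29 without DKO replicate 2, 16 without WT replicate 1), 0 to 3 WT-only regions (3 without WT replicate 2, 1 without DKO replicate 1) and 19 to 31 regions called in all remaining libraries (31 without WT replicate 2). Leaving out a list removes a condition that a region must meet. With the replicate number as a block, the log2 differences stayed at 0.75, -0.22 and 0.77, with an exact permutation p of 0.50, the smallest for 2 pairs. Calls of same-numbered libraries did not deviate together across regions (correlation of -0.07 over 38986 regions). Such a correlation does not show a shift of whole lists, and replicate 1 had the longer list in both genotypes. Whether the number marks a shared batch is therefore not known. No block could be fitted to the counts of regions, which come from no test. The number of libraries and unknown read depth limit every comparison here.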
